A study of Mus musculus with 4 samples.

Results

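The cell cycle genes described here are 36 genes of replication and mitosis, of 32285 genes listed in each library, chosen as a fixed list of names and not by any measured value. They comprise 14 genes of S phase (Ccne1, Ccne2, Cdc6, Mcm2, Mcm3, Mcm4, Mcm5, Mcm6, Mcm7, Gins2, Pcna, Tyms, Rrm1 and Rrm2), 19 genes of mitosis (Mki67, Top2a, Cdk1, Ccna2, Ccnb1, Ccnb2, Birc5, Ube2c, Cenpa, Cenpe, Cenpf, Aurka, Aurkb, Bub1, Plk1, Kif11, Nusap1, Tpx2 and Cdc20) and 3 genes that many cells also use outside division (Stmn1, Tuba1b and Hmgb2). All 36 were found in all 4 libraries, each with at least 50 unique molecular identifiers (UMIs, the count of captured RNA molecules).

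RNA of single cells was counted from mice bred so that the compound 1NMPP1 can block a receptor kinase on their sensory nerves, and vehicle-treated mice were of the same genotype. The growth plate samples were the distal femur epiphysis with its injured growth plate, and the dorsal root ganglion (DRG) samples were lumbar ganglia, both taken 7 days after injury. Treated mice received 1NMPP1 by injection into the abdomen at 17 µg per g body weight 48 h and 2 h before surgery and then at 40 µM in drinking water, and control mice received the DMSO vehicle. Each of the 4 groups (growth plate with vehicle, growth plate with 1NMPP1, DRG with vehicle, DRG with 1NMPP1) was 1 library, how many animals went into a library is not stated here, and no difference between groups could be tested. Where 4 values are given, they follow that order of groups.

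A dividing cell copies its DNA in S phase and separates the copies in mitosis. Cyclin E (Ccne1, Ccne2) and Cdc6 prepare replication origins, the Mcm2 to Mcm7 ring with Gins2 unwinds the DNA, Pcna clamps the polymerase to it, and Tyms, Rrm1 and Rrm2 make the nucleotides. Many replication genes are known targets of E2F transcription factors, whereas many mitosis genes are known to be held back in resting cells through a cell cycle homology region (CHR) close to the start site and switched on through CCAAT boxes. In bone marrow, the blood progenitors divide rapidly and neutrophils leave the cycle as they mature.

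The 250 bases upstream of the start site were searched for these 3 motifs in 30 RefSeq promoters (GRCm38.p6) of 29 members. No entry was at hand for Aurkb, Ccna2, Ccne2, Gins2, Mcm4, Stmn1 and Tpx2. The E2F motif was searched as TTTCCCGC, TTTGCCGC, TTTCGCGC or TTTGGCGC, the CHR as TTTGAA and the CCAAT box as CCAAT, on both strands and with overlaps counted. The S phase promoters held an E2F match in 4 of 12 (33.3%), a CHR match in 1 of 12 (8.33%) and a CCAAT match in 9 of 12 (75.0%). The mitosis promoters held an E2F match in 1 of 16 (6.25%), a CHR match in 7 of 16 (43.8%) and a CCAAT match in 14 of 16 (87.5%). Among all 32851 promoters of the same length, 1.86% held an E2F match, 16.0% a CHR match and 33.8% a CCAAT match. A CHR and a CCAAT match together occurred in 7 of 16 mitosis promoters and in 5.55% of all promoters. Among the broad members, the Hmgb2 promoter held 2 CHR and 4 CCAAT matches and the Tuba1b promoter held none. These matches describe letters and are not measured binding.

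The promoters of Mcm6 and Mcm5, both subunits of the replication helicase, and of Top2a, which untangles DNA before segregation, and Ube2c, which tags mitotic cyclins for destruction, are shown because they held the most matches of their groups; they were chosen after the matches were seen. Each runs 5′ to 3′ along the gene's strand and ends at the base before the start site, with motif matches in capitals. They lie at chr1:128359706-128359955 on the minus strand (Mcm6), chr8:75109259-75109508 on the plus strand (Mcm5), chr11:99024190-99024439 on the minus strand (Top2a) and chr2:164769679-164769928 on the plus strand (Ube2c).
Mcm6: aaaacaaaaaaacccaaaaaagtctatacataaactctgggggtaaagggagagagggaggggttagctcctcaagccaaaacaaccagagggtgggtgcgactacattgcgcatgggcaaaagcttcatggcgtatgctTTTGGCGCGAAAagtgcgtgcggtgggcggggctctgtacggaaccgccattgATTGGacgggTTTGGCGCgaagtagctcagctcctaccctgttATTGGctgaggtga
Mcm5: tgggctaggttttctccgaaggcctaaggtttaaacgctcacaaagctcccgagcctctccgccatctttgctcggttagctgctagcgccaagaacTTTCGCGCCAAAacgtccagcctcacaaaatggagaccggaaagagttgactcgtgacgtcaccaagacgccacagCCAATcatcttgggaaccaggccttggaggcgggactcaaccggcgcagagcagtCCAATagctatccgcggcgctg
Top2a: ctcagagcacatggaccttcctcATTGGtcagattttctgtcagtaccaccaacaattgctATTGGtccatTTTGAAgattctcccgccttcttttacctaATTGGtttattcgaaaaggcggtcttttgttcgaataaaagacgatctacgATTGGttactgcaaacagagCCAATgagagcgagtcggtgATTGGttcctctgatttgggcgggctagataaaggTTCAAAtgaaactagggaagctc
Ube2c: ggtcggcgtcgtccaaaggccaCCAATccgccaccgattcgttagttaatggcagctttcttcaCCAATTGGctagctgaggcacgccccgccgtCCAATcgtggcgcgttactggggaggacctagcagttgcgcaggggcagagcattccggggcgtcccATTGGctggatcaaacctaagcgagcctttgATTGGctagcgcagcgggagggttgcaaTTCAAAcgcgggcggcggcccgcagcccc
The Mcm6 promoter held 3 E2F and 2 CCAAT matches and the Mcm5 promoter 2 of each, with no CHR match in either. The Top2a promoter held 2 CHR and 6 CCAAT matches and the Ube2c promoter 1 CHR and 6 CCAAT matches, with no E2F match in either.

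The libraries held 9560, 11807, 3675 and 2612 barcodes and between 32790205 and 139703885 UMIs. After filters, 8658, 10534, 2843 and 2151 cells were kept, with a median of 6491.5, 7064, 10462 and 7026 UMIs. Pairs of libraries shared 4 to 40 barcodes, at most 0.418% of the smaller library. Male-called cells made up 49.6%, 24.9%, 45.6% and 17.3% of kept cells. Cell classes were called "-like" from marker genes. In the growth plate libraries 97.0% and 98.8% of cells with 2000 UMIs were of blood classes. Chondrocyte-like cells, which define a growth plate, numbered 67 and 2 after removal of barcodes predicted to hold more than 1 cell. Without that removal 89 and 38 such cells had 2000 UMIs. In the DRG libraries blood classes held 42.3% and 61.9% of such cells, and sensory neuron-like cells numbered 376 and 109.

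The cycling share was 84.2% to 94.4% in granulocyte progenitor-like cells and at most 1.62% in mature neutrophil-like cells. To compare shares across depths, each cell was thinned to 2000 UMIs, and a cell was called cycling with at least 3 UMIs from at least 2 of the 33 S phase and mitosis genes. Among all cells, 29.3% (2293 of 7826, 95% interval 28.3 to 30.3), 27.1% (2645 of 9756, 26.2 to 28.0), 12.9% (307 of 2389, 11.5 to 14.3) and 14.0% (274 of 1963, 12.5 to 15.6) were called cycling. These exact Clopper-Pearson intervals cover counting error only. Shallower cells, 832, 778, 454 and 188 in number, were left out, and without thinning the shares were 42.1%, 45.0%, 39.0% and 33.1%. Blood classes held 98.6% and 99.6% of the cycling cells of the growth plate libraries, and 87.9% (270 of 307) and 95.6% (262 of 274) of those of the DRG libraries. Cycling cells were deeper than other cells before thinning, with medians of 18417 against 5800 UMIs in the growth plate vehicle library.

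Among blood classes of the growth plate, granulocyte progenitor-like cells were cycling in 94.4% (405 of 429, 91.8 to 96.4) with vehicle and 93.9% (401 of 427) with 1NMPP1. Other progenitor-like cells, few in number, were cycling in 88.9% (24 of 27) and 85.7% (24 of 28). Megakaryocyte-like cells were at 75.4% (46 of 61) and 62.2% (46 of 74), and erythroid-like cells at 63.5% (122 of 192) and 57.4% (109 of 190). Monocyte-like cells (48.6% and 47.4%) and pro-B-like cells (46.3% and 47.2%) lay close together, with no library of either class more than a few points from the others. Immature neutrophil-like cells were cycling in 39.5% (512 of 1296) and 34.0% (527 of 1552). These class shares depend on how the classes are drawn. With the cell cycle genes kept in the clustering, immature neutrophil-like cells were cycling in 28.2% (462 of 1636, 26.1 to 30.5) and 23.7% (471 of 1988, 21.8 to 25.6), and megakaryocyte-like cells in 84.0% (21 of 25) and 87.5% (21 of 24). B cell-like cells, the resting descendants of pro-B cells, were cycling in 8.23% (40 of 486) and 9.78% (48 of 491). Mature neutrophil-like cells, which have left the cycle, gave the background of the call at 1.23% (33 of 2674, 0.851 to 1.73) and 1.62% (59 of 3652, 1.23 to 2.08), with median depths of 4341 and 4760 UMIs. Each of the other blood classes named here lay above that background in both libraries.

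**Figure D1:**
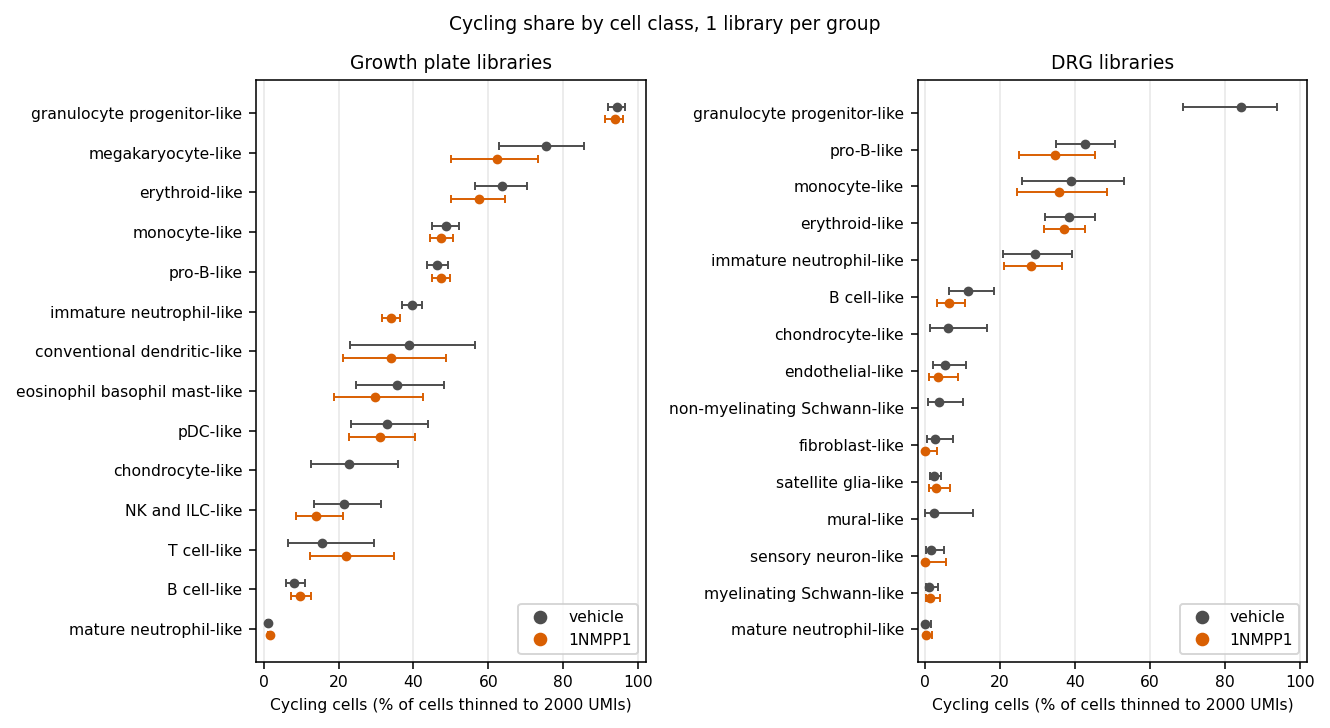
Cycling cells as a percentage of the cells thinned to 2000 UMIs (x axis) in each cell class with at least 30 such cells (y axis), for the growth plate (left) and DRG (right) libraries. Points are single libraries and bars are exact 95% intervals of counting error. Granulocyte progenitor-like cells stand highest at 94.4% and 93.9% in the growth plate, and mature neutrophil-like cells lie at or under 1.62% in all 4 libraries.

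In the DRG libraries granulocyte progenitor-like cells were again high and mature neutrophil-like cells low, and the order of the classes between them was not that of the growth plate. Granulocyte progenitor-like cells were cycling in 84.2% (32 of 38) with vehicle and 89.5% (17 of 19) with 1NMPP1, pro-B-like cells in 42.7% and 34.8%, monocyte-like cells in 38.9% and 35.8%, erythroid-like cells in 38.5% and 37.0%, and immature neutrophil-like cells in 29.4% and 28.4%. Cells with markers of eosinophils, basophils and mast cells gave 8 of 14 (57.1%) and 11 of 16 (68.8%). These shares were above the 35.7% (25 of 70) and 29.7% (19 of 64) of the same class in the growth plate. This class had too few DRG cells for the count of classes given below. Mature neutrophil-like cells gave 0 of 224, which allows a share of up to 1.34%, and 1 of 294 (0.340%). Of the 6 blood classes with at least 30 cells in all 4 libraries, 5 (erythroid, immature neutrophil, mature neutrophil, monocyte and pro-B) had both DRG shares under both growth plate shares, and B cell-like cells did not. The tissues were clustered separately and differ in dissociation, and the part of either in this order was not tested. In erythroid-like cells with a sex call the order did not hold. There the DRG gave 71.9% (41 of 57, male-called) and 81.8% (27 of 33, female-called) with vehicle. With 1NMPP1 it gave 91.8% (78 of 85, female-called). The growth plate gave 75.7% (56 of 74, male-called, vehicle) and 79.6% (39 of 49, female-called, 1NMPP1).

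Non-blood cells of the DRG seldom carried the cycling call. Satellite glia-like cells, which wrap neuron bodies, were cycling in 2.49% (14 of 562, 1.37 to 4.14) and 2.86% (5 of 175, 0.934 to 6.54). The share was 0.943% (2 of 212) and 1.40% (3 of 215) in myelinating Schwann-like cells, and 5.43% (7 of 129) and 3.54% (4 of 113) in endothelial-like cells. Fibroblast-like cells gave 2.63% (3 of 114) and 0 of 111, which allows a share of up to 2.70%. Sensory neuron-like cells, which do not divide, gave 1.45% (2 of 138, 0.176 to 5.14) and 0 of 63, which allows up to 4.76%. The intervals of satellite glia-like and sensory neuron-like cells overlapped in the vehicle library, which does not decide whether their shares differ. Of the 14 cycling satellite glia-like cells there, 9 were in G2/M as defined below. In that class 3 cells held 1112 of the 1610 mitosis UMIs. In endothelial-like cells 8.73% and 12.9% of the S phase and mitosis UMIs came from mitosis genes, against 63.6% and 62.4% over all DRG cells. This part was 20.6% and 17.5% in fibroblast-like and 22.5% and 17.2% in myelinating Schwann-like cells. It was higher in satellite glia-like (45.2% and 35.9%) and sensory neuron-like cells (34.1% and 42.9%). Non-myelinating Schwann-like cells of the vehicle library gave 58.8%. In endothelial-like cells Pcna alone reached 257 CPM (counts per 1000000 UMIs of the class) with vehicle and 263 CPM with 1NMPP1.

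Chondrocyte-like cells of the growth plate vehicle library were cycling in 22.8% (13 of 57, 12.7 to 35.8), and 12 of these 13 cells fell in G2/M. The 1NMPP1 library kept 2 chondrocyte-like cells, none with 2000 UMIs, after removal of predicted doublets (barcodes holding more than 1 cell). Without that removal the shares were 27.0% (24 of 89, 18.1 to 37.4) and 13.2% (5 of 38, 4.41 to 28.1), and their intervals overlapped. Predicted doublets were 10 of the 24 cycling and 8 of the 65 other chondrocyte-like cells with vehicle, and 5 of 5 and 31 of 33 with 1NMPP1. Cartilage genes made up a median of 8.10% of UMIs in the cycling and 12.2% in the other cells with vehicle, and blood genes 0.980% and 0.930%. With 1NMPP1 these medians were 11.4% and 11.8% for cartilage genes and 1.32% and 1.27% for blood genes. The part of doublets in the cycling shares was not tested. The 3 cells with the most held 55.9% of the mitosis UMIs of this class in the vehicle library.

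Within the cycling cells, G2/M cells outnumbered S phase cells by a call that sums UMIs over 19 mitosis and 14 S phase genes. A cell was placed in S phase when under 1/3, and in G2/M when over 2/3, of its S phase and mitosis UMIs came from mitosis genes. G2/M cells made up 52.7%, 52.2%, 45.9% and 48.2% of cycling cells, S phase cells 16.2%, 16.8%, 17.9% and 19.3%, and the rest were mixed. Cells within 0.05 of a limit numbered 466, 537, 67 and 50. Scores from scanpy with the same genes gave G2/M shares of 47.3%, 49.5%, 57.0% and 56.9%. Their S phase shares were 47.1%, 45.1%, 39.1% and 38.0%, so the balance of the phases depended on the call. These scores called 7.79% to 14.1% of the cells not cycling here S or G2/M.

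The balance of the phases differed between classes. In the growth plate, G2/M cells were 67.0% and 67.7% of cycling immature neutrophil-like cells but 37.0% and 35.9% of cycling granulocyte progenitor-like cells. They were 61.3% and 55.6% in monocyte-like, 54.4% and 53.9% in pro-B-like and 48.4% and 64.2% in erythroid-like cells. In B cell-like cells 7.50% (3 of 40) and 27.1% (13 of 48) of the cycling cells were in G2/M. For the 2 neutrophil classes the gap between the classes was wider than the gap between the libraries.

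Most genes followed the phase of their group when cells were placed by the other genes alone. All 19 mitosis genes had more UMIs per G2/M cell than per S phase cell in all 4 libraries. Ube2c had the widest gap, with log2 ratios of 4.36, 4.78, 5.78 and 5.88, and in the growth plate libraries the kinetochore protein Cenpf (3.97 and 4.64) and the mitotic kinase Plk1 (3.90 and 3.88) came next. In the DRG, Aurka and Bub1 (both libraries) and Cenpe and Cdc20 (1NMPP1) had 0 UMIs in S phase cells, so their ratios there depend on the added 0.5 UMI. Top2a, which also acts during replication, had the narrowest at 1.27, 1.30, 1.72 and 1.43. Of the 14 S phase genes, 12 were lower in G2/M cells in all 4 libraries, among them Mcm4 at -2.04, -1.70, -1.75 and -1.65. Both exceptions encode subunits of ribonucleotide reductase. Rrm2, its regulated small subunit, was higher in G2/M cells in all 4 libraries at 0.38, 0.03, 0.18 and 0.68. The Rrm2 intervals held 0 in the growth plate 1NMPP1 (-0.21 to 0.27) and DRG vehicle (-0.37 to 0.79) libraries. Rrm1, the large subunit, gave -0.52, -0.25, 0.33 and 0.07. Some of the 12 lower genes also had intervals that held 0 in the DRG, among them Tyms in both libraries (-0.09 and -0.03). Among 6815 other genes, 14.8% were higher and 37.7% lower in G2/M cells in all 4 libraries.

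The 3 broad genes did not share a phase. Hmgb2, a chromatin protein, was higher in G2/M cells at 1.19, 1.28, 1.13 and 1.10. Tuba1b, a tubulin, gave 0.65, 0.71, 0.72 and 0.62. Stmn1, which destabilizes microtubules, gave 0.19, 0.04, -0.62 and -0.48. Stmn1 and Tuba1b were detected in 61.7% to 73.1% of cycling and 6.83% to 31.8% of other cells. Hmgb2 was detected in 93.2%, 94.3%, 89.6% and 88.0% of cycling cells and also in 71.0%, 74.4%, 24.3% and 32.3% of other cells, so in the growth plate most cells held it. The median S phase gene was detected in 19.3%, 20.1%, 18.1% and 22.3% of the cells that the other genes called cycling, and in 0.839% to 1.47% of other cells. The median mitosis gene was detected in 23.8%, 27.2%, 28.0% and 29.6% of cycling cells and in 0.414% to 1.02% of other cells.

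**Figure D2:**
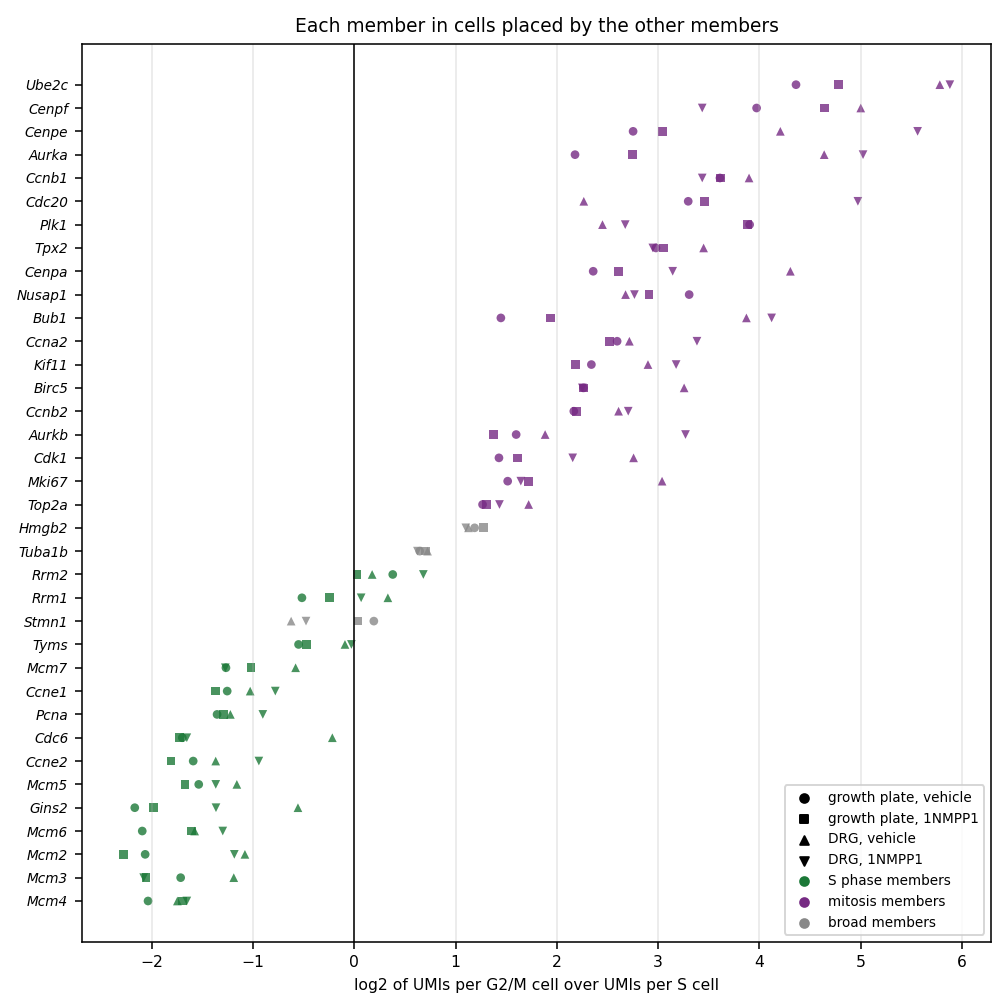
Log2 ratio of UMIs per G2/M cell over UMIs per S phase cell (x axis) for each of the 36 genes (y axis), with cells placed by the other genes. Marker shapes are the 4 libraries and colours the 3 gene groups. All mitosis genes lie right of 0 in every library, from Top2a to Ube2c (markers with 0 UMIs in S phase cells are drawn with 0.5 UMI added). Rrm2 is the S phase gene that also does, with intervals that hold 0 in the growth plate 1NMPP1 and DRG vehicle libraries.

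Along the neutrophil lineage of the growth plate, S phase genes declined before mitosis genes. Clusters were ordered by the ratio of Retnlg, a gene of mature neutrophils, to Elane, a protease gene of granulocyte progenitors. In the vehicle library the cycling share went from 92.8% in the earliest cluster through 96.7%, 97.0%, 56.1% and 15.8% to 1.56% in the sixth, and with 1NMPP1 it was 92.1%, 97.5%, 98.6%, 52.7%, 6.51% and 1.39%. The intervals of the fifth cluster, 10.4 to 22.6% and 3.29 to 11.3%, overlapped. The 9 mature neutrophil-like clusters lay between 0 and 2.56%. A further progenitor-like cluster of 79 and 42 cells was left out of this order because 5 and 4 of its cells reached 2000 UMIs. It was split from the same parent cluster as the clusters at 96.7% and 97.0% with vehicle. These parts were nearly all cycling under both class names, so the parent cluster may have gathered cycling cells. The step from 97.0% to 56.1% may thus partly reflect how the clusters were drawn, which was not tested. The parts of another split cluster, and clusters with under 30 cells in a library, were left out too. The order therefore does not hold all 511 and 472 granulocyte progenitor-like cells.

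The summed level of the S phase genes in the vehicle library was 1600, 1706, 1649, 783, 139 and 50.8 CPM over the 6 clusters. The summed level of the mitosis genes was 2089, 2953, 3568, 3102, 1221 and 159 CPM. At the fourth cluster the S phase sum was thus under its level in the earliest cluster, while the mitosis sum was above its own. The 1NMPP1 library gave 1576, 1585, 1482, 784, 152 and 73.4 CPM for S phase and 2014, 2850, 3628, 3143, 388 and 183 CPM for mitosis.

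Single genes of the vehicle library followed their group's course with exceptions. Mcm3 was at 169, 124, 115, 39.4, 6.51 and 1.98 CPM, the earliest decline among the genes given here. Rrm2 was at 180, 301, 339, 166, 20.8 and 2.31 CPM, and thus peaked with the mitosis genes. Mki67, the proliferation antigen Ki-67, was at 175, 370, 487, 507, 139 and 21.1 CPM. Ube2c was at 303, 404, 525, 407, 210 and 21.5 CPM. Hmgb2 kept 1226 CPM in the sixth cluster, from which S phase and mitosis genes were nearly absent. In the fifth cluster Ube2c was at 23.6 CPM in the 1NMPP1 library, against 210 CPM with vehicle.

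**Figure D3:**
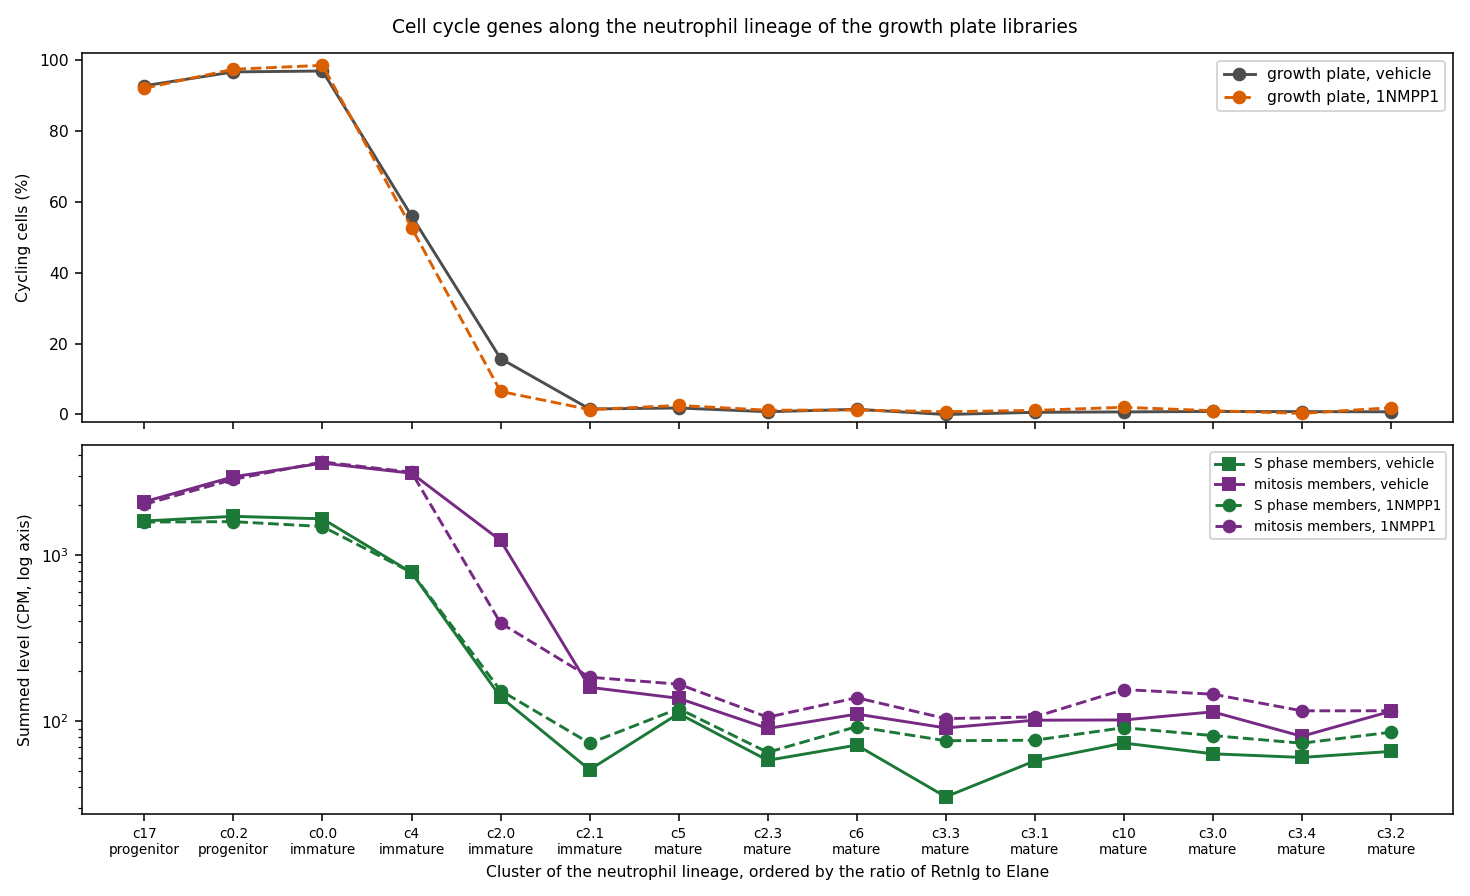
Cycling share in percent (top) and summed level of the S phase and the mitosis genes in CPM on a log axis (bottom). The clusters are those of the neutrophil lineage kept in the order, in both growth plate libraries. Clusters run from the lowest to the highest ratio of Retnlg to Elane and carry their cluster number and class. The S phase sum falls away at the fourth cluster (783 and 784 CPM), where the mitosis sum is still at 3102 and 3143 CPM.

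The same order was seen between the 2 classes in each library. From granulocyte progenitor-like to immature neutrophil-like cells, the S phase genes had a median log2 ratio of CPM of -1.43, -1.46, -1.499 and -1.42, and the mitosis genes of -0.03, -0.10, -0.40 and -0.90. The median over all genes with at least 50 UMIs was -0.65, -0.61, -0.69 and -0.62. At least 2-fold lower were 9 of 14, 10 of 14, 8 of 14 and 10 of 13 measured S phase genes and 0, 0, 0 and 6 of 19 mitosis genes, against 40.3%, 38.8%, 40.7% and 37.2% of all genes. The DRG 1NMPP1 library held 19 progenitor-like cells, the fewest.

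Among S phase genes, Gins2 was at 42.5, 44.8, 44.5 and 40.9 CPM in progenitor-like cells and at 7.47, 7.34, 5.49 and 8.69 CPM in immature neutrophil-like cells. No library overlapped between the classes, and the log2 ratios were -2.50, -2.60 and -2.96 in the first 3 libraries. The DRG 1NMPP1 library held 22 and 15 UMIs of it, under the minimum of 50. Mcm6 gave -2.10, -2.19, -2.31 and -2.40, and Mcm3 -2.20, -2.29, -2.38 and -1.95. Rrm2 (-0.52, -0.59, 0.29 and 0.07) and Ccne2 (-0.16, -0.39, 0.56 and -0.13) stood apart from the other S phase genes because they were not lower by 2-fold in any library. Among mitosis genes, Mki67 was at 239, 232, 151 and 242 CPM in progenitor-like and at 390, 369, 208 and 265 CPM in immature neutrophil-like cells, which is higher in all 4 libraries. Aurkb, a kinase of the chromosomal passenger complex, was lower at -0.92, -0.72, -0.70 and -2.09. Of the broad genes, Stmn1 was lower at -1.03, -1.03, -1.22 and -1.56, and Hmgb2 higher at 0.59, 0.55, 0.35 and 0.06.

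**Figure D4:**
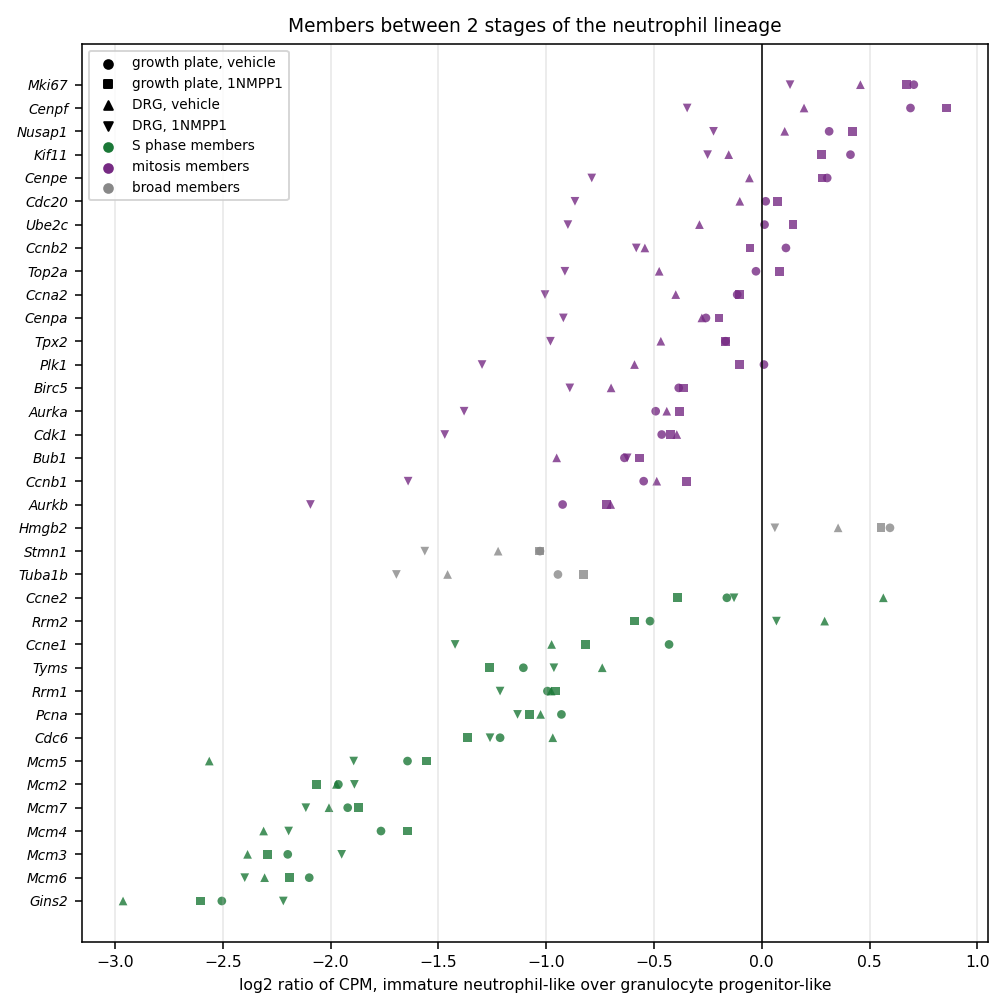
Log2 ratio of CPM, immature neutrophil-like over granulocyte progenitor-like cells (x axis), for each of the 36 genes (y axis), with 1 marker per library and colours for the gene groups. S phase genes lie mostly left of -1. Mitosis genes lie around 0 in the growth plate libraries and mostly left of 0 in the DRG libraries, with medians of -0.40 and -0.90 there. Gins2 lies farthest left in the growth plate libraries at -2.50 and -2.60. The Gins2 marker of the DRG 1NMPP1 library rests on under 50 UMIs.

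Among cells of 1 phase the contrast was narrower. Within G2/M cells of the growth plate libraries, the median S phase gene was lower in immature neutrophil-like than in progenitor-like cells by log2 ratios of -0.52 and -0.72. Within S phase cells the median was 0.35 and 0.09, so the S phase genes were not lower there. Mitosis genes within G2/M cells gave 0.36 and 0.21. The phases were called from the same genes, so these values are a description.

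Regulators outside the 36 genes were compared between the same 2 classes. The genes named here were picked from the lists after their values were seen. Of 25 regulators of G1, in which a cell commits to division, 24, 24, 19 and 16 were measured and 18, 17, 13 and 12 were lower in immature neutrophil-like cells, with a median of -0.46, -0.46, -0.37 and -0.89. Of all genes measured, 7332 of 10719, 7557 of 11097, 4585 of 6447 and 3568 of 5064 were lower, so the regulators' counts lay near that background. Cyclin D2 (Ccnd2) was at 74.1, 65.8, 108 and 61.3 CPM in progenitor-like cells and at 0.550, 1.01, 1.499 and 0.579 CPM in immature neutrophil-like cells, with 33 and 1 UMIs in the DRG 1NMPP1 library. The kinase that it activates, Cdk4, was at 200, 190, 192 and 268 CPM and then at 10.4, 12.9, 12.5 and 14.5 CPM, and Cdk6 had log2 ratios of -3.17, -3.13, -3.45 and -3.28. Cyclin D3 (Ccnd3) went the other way at 1.22, 1.20, 0.70 and 0.72, as did the transcription factor E2f2 at 1.52, 1.21, 0.84 and 0.73. In the growth plate, Ccnd2 and Cdk4 were thus nearly absent from the class whose median mitosis gene was at the level of the progenitors.

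Of 17 genes that restrain the cycle, 14, 14, 12 and 12 were measured and 10, 10, 9 and 8 were higher in immature neutrophil-like cells, with medians of 1.15, 1.18, 0.70 and 0.44. Of all genes measured, 3387 of 10719, 3540 of 11097, 1862 of 6447 and 1496 of 5064 were higher. Gadd45a, a stress-response gene, was at 30.5, 26.2, 73.7 and 42.7 CPM and then at 177, 180, 294 and 414 CPM. The inhibitor of Cdk4 and Cdk6 encoded by Cdkn2d gave 1.55, 1.56, 1.39 and 0.59, and the antiproliferative gene Btg1 gave 1.31, 1.43, 1.06 and 1.06. Wee1, a kinase that delays entry into mitosis, was lower at -1.54 and -1.29 in the growth plate libraries and had under 50 UMIs in the DRG libraries. In mature neutrophil-like cells of the growth plate, Btg2 reached 1543 and 1691 CPM and Btg1 1002 and 1049 CPM.

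Cell classes used single members to different extents. In cycling erythroid-like cells Mki67 had 4.20 (3.83 to 4.59), 5.35 (4.89 to 5.83), 3.29 and 3.55 UMIs per thinned cell. Granulocyte progenitor-like cells of the growth plate had 0.48 and 0.46, and pro-B-like cells 2.08 and 2.02, so erythroid-like cells were highest in both libraries. Top2a was close between erythroid-like (1.93 and 1.95) and pro-B-like cells (2.40 and 2.46). Ccne1 was at 98.2 and 97.6 CPM in erythroid-like cells of the growth plate and at 28.8 and 29.9 CPM in pro-B-like cells. Stmn1 was at 1726 CPM in sensory neuron-like and 1315 CPM in myelinating Schwann-like cells of the DRG vehicle library, where its cycling cells were at background, and at 1145 CPM in pro-B-like cells of the growth plate vehicle library. Tuba1b was at 940 CPM in the same neurons. These 2 genes therefore did not follow the cycling share across the classes.

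Inhibitors and G1 regulators were also measured outside the neutrophil lineage. Chondrocyte-like cells of the growth plate vehicle library held Cdkn1c, which encodes the inhibitor p57, at 729 CPM and Btg2 at 808 CPM. Myelinating Schwann-like cells held Cdkn1a, which encodes the inhibitor p21, at 1283 and 1198 CPM. Sensory neuron-like cells of the DRG vehicle library held Cdkn2d at 182 CPM. Satellite glia-like cells held Cdk6 at 233 and 278 CPM, under its 445 and 415 CPM in granulocyte progenitor-like cells of the growth plate, and cyclin D1 (Ccnd1) at 189 and 220 CPM, and endothelial-like cells held Ccnd2 at 503 and 497 CPM.

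The study asks how sensory nerves act on the response to growth plate injury, and its comparison sets 1NMPP1 against vehicle within a tissue. In the growth plate the cycling share of all cells was 29.3% and 27.1%, a log2 ratio of -0.11, with intervals that did not overlap. Without thinning the order turned, at 42.1% and 45.0%. Weighting the classes of the 1NMPP1 library as in the vehicle library gave 28.1% and a log2 ratio of -0.06. In the DRG the shares were 12.9% and 14.0%, with intervals that overlapped, and the same weighting gave 11.6% with 1NMPP1 and a log2 ratio of -0.17 in place of 0.12.

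Immature neutrophil-like cells were the class of the growth plate with at least 100 cells whose intervals did not overlap, at 39.5% (36.8 to 42.2) with vehicle and 34.0% (31.6 to 36.4) with 1NMPP1. Without thinning the shares were 49.96% and 51.1%, so the direction depends on it. With no doublets removed they were 33.5% (31.1 to 35.9) and 29.99% (27.9 to 32.1), with intervals that overlapped. Over all growth plate cells, doublet removal took 12.04% of cycling and 5.997% of other cells with vehicle. With 1NMPP1 it took 14.12% and 7.30%. Male-called immature neutrophil-like cells gave 40.4% and 32.1%, and female-called cells 52.7% and 49.8%. Over all growth plate cells, the share was 42.5% in female-called against 30.6% in male-called cells with vehicle, and 38.0% against 28.8% with 1NMPP1, with intervals that did not overlap. A sex call needs UMIs of the genes that define it, so called cells differ from uncalled cells in depth. The part of sex in the difference between the libraries was not tested.

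The levels of the 36 genes were close between the growth plate libraries in 5 of the 7 named classes with at least 100 cells in both. Over all cells, 32 genes were higher and 4 lower with 1NMPP1, where 48.5% of all genes with at least 50 UMIs were higher. The median log2 ratio of the 36 was 0.05 and none passed 1.5-fold. Of all genes, 3.27% were at least 1.5-fold higher and 8.8% lower. In granulocyte progenitor-like cells the median was -0.02 and none passed 1.5-fold (background 2.39% higher, 2.28% lower). The widest differences there were Ube2c at 329 and 265 CPM (-0.31, interval -0.37 to -0.25), Tuba1b at 602 and 489 CPM and Ccne1 at 15.8 and 19.4 CPM (0.29, 0.03 to 0.56). In immature neutrophil-like cells 27 of 36 genes were lower, against 3824 of all 10273, and none passed 1.5-fold (background 3.51% higher, 1.37% lower). The median of the 36 was -0.05, against 0.05 for all genes. Without removal of doublets this median was 0.003. Its extremes were Plk1 at 42.9 and 37.7 CPM (-0.19) and Nusap1 at 112 and 128 CPM (0.19).

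None of the 36 genes passed 1.5-fold in monocyte-like (median 0.00, background 2.57% higher, 2.21% lower), pro-B-like (0.10, background 2.29% higher, 1.96% lower) or erythroid-like cells (0.01, background 3.59% higher, 14.7% lower). In monocyte-like cells Aurkb was at 71.0 and 87.8 CPM (0.30). In pro-B-like cells Cdk1, the kinase that drives entry into mitosis, was at 173 and 206 CPM (0.25) and Mki67 at 697 and 660 CPM (-0.08). In erythroid-like cells Tuba1b was at 911 and 636 CPM (-0.52), while the median of all genes was -0.19. Tuba1b was lower with 1NMPP1 in monocyte-like (-0.17) and immature neutrophil-like cells (-0.18) as well.

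Mature neutrophil-like cells held few UMIs of these genes. Of 33 measured, 27 were higher with 1NMPP1, where 64.5% of all genes were higher. At least 1.5-fold higher were 5 (background 4.95%), and none was 1.5-fold lower (background 1.59%). The median was 0.26 against 0.07 for all genes. Tyms had 26 and 84 UMIs (1.74 and 3.88 CPM, log2 ratio 1.14), and Stmn1 289 and 719 UMIs (19.3 and 33.2 CPM, 0.78). Without removal of doublets the median was 0.06. The levels lie near the background of the call, and the cycling shares of this class, 1.23% and 1.62%, have overlapping intervals.

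In B cell-like cells of the growth plate, S phase and mitosis genes went opposite ways. All 9 measured S phase genes were lower with 1NMPP1, against 4492 of all 8301 genes. Of these 9, 6 were at least 1.5-fold lower (background 3.11%), and the median was -0.63. All 16 measured mitosis genes were at least 1.5-fold higher (background 3.37%), with a median of 1.44. Mcm6 had 173 and 89 UMIs (65.9 and 30.3 CPM, -1.12) and Ube2c 72 and 292 UMIs (27.4 and 99.5 CPM, 1.85). Few cells held the mitosis UMIs, since 50% of the 956 mitosis UMIs with vehicle lay in 7 cells and 50% of the 2330 with 1NMPP1 in 5 cells. The S phase UMIs were spread over more cells, with 50% of 1374 in 13 cells with vehicle and 50% of 963 in 58 cells with 1NMPP1. With the cell cycle genes kept in the clustering the median over all measured members was -0.03 in place of 0.68. Male-called cells alone gave a median over all measured members of -1.25 and female-called cells 1.39, so the direction differed with the sex call.

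In the DRG libraries the median shift over all cells was larger than within erythroid-like or immature neutrophil-like cells. Over all cells 34 of 36 genes were higher with 1NMPP1, where 55.8% of all genes were higher. The median of the 36 was 0.47. At least 1.5-fold higher were 11 (background 13.3%), and none was 1.5-fold lower (background 9.84%). Mcm2 was highest at 14.6 and 27.7 CPM (0.93). Blood classes held 42.3% of cells with vehicle and 61.9% with 1NMPP1, and the part of this shift in the median was not tested. Within erythroid-like cells the median was 0.15, with 1 gene at least 1.5-fold higher (Mcm2, 0.71; background 5.54%) and 1 lower (Gins2, -0.72; background 38.4%). Within immature neutrophil-like cells the median of 35 measured genes was 0.08. Of 13 measured S phase genes, 6 were at least 1.5-fold higher there (background 12.4%), with Mcm5 at 28.0 and 69.5 CPM (1.31). Of 19 mitosis genes, 5 were at least 1.5-fold lower there (background 3.55%), with Ccnb2 at 78.9 and 47.5 CPM (-0.73). The immature neutrophil-like class held 114 and 155 cells and the erythroid-like class 257 and 321.

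In the other DRG classes few cells held most UMIs of some gene groups. In satellite glia-like cells 5 of 7 measured S phase genes were at least 1.5-fold higher with 1NMPP1 (background 19.6%). Of 14 mitosis genes, 6 were at least 1.5-fold lower (background 8.12%). Ube2c had 202 and 7 UMIs (20.6 and 2.87 CPM, -2.75), and 50% of all mitosis UMIs of the class lay in 2 cells in each library. The S phase UMIs of the class were spread more widely, with 50% in 99 cells with vehicle and in 30 cells with 1NMPP1. In B cell-like cells 11 genes were measured and 9 were at least 1.5-fold lower (background 5.74%) and none 1.5-fold higher (background 10.9%). With vehicle 3 cells held 71.0% of the mitosis UMIs. Top2a had 111 and 10 UMIs there (144 and 11.2 CPM). In sensory neuron-like cells 23 genes were measured with a median of 0.11, and 6 were at least 1.5-fold higher (background 13.3%) and 1, Hmgb2, 1.5-fold lower (background 7.13%). Ccnb1 had 5 and 89 UMIs, 86 of the 89 in 1 cell, and Cenpf 148 and 393 UMIs, 162 of the 393 in 1 cell.

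Hmgb2 and Tuba1b were among the few members measured in myelinating Schwann-like cells, at 29.8 and 48.3 CPM (0.70) and at 344 and 529 CPM (0.62). These 2 of the 4 measured genes were at least 1.5-fold higher, where 13.1% of all genes were higher and 5.76% lower. Stmn1 was at 1315 and 1302 CPM (-0.01) in the same cells. In endothelial-like cells Mcm7 was at 13.3 and 23.2 CPM (0.81) and Pcna at 257 and 263 CPM (0.03), with 2 of 9 measured genes at least 1.5-fold higher (background 21.6% higher, 7.09% lower). In fibroblast-like cells 5 genes were measured and none passed 1.5-fold (background 13.6% higher, 7.28% lower), and in mature neutrophil-like cells of the DRG none of 3 did (background 8.68% higher, 4.21% lower).

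**Figure D5:**
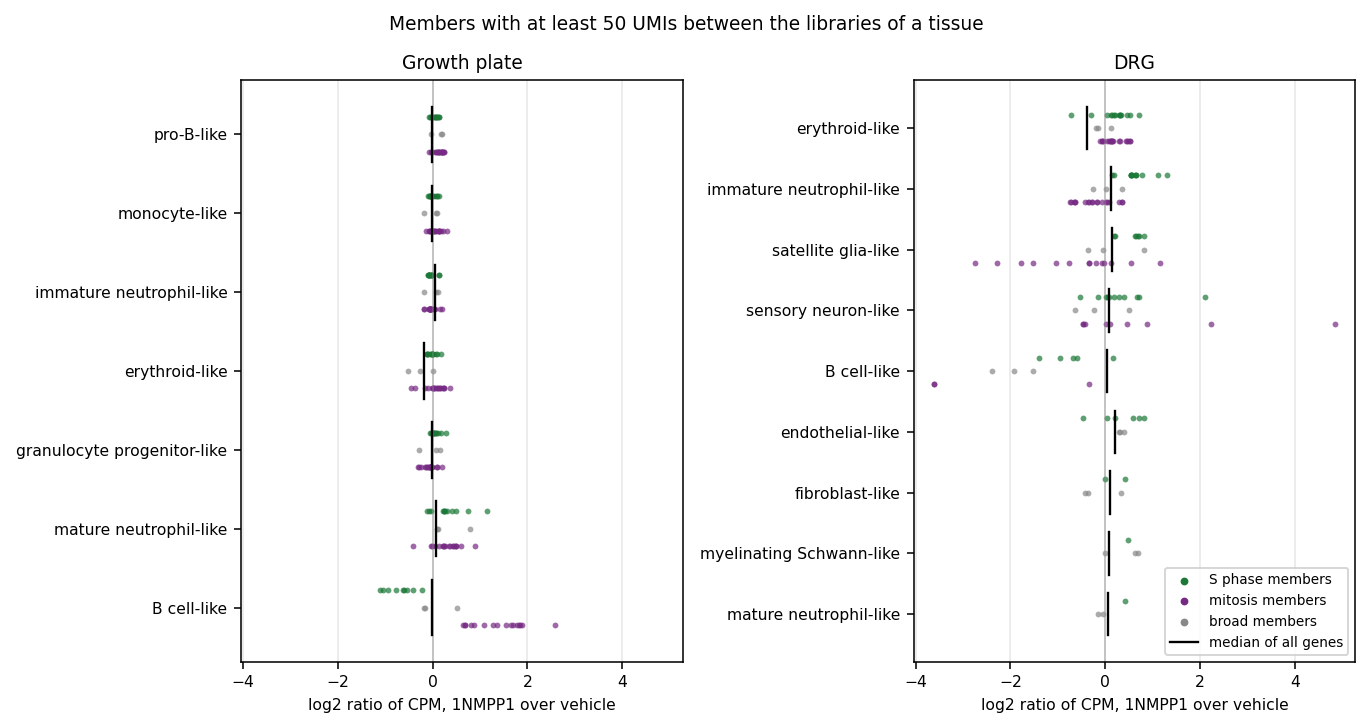
Log2 ratio of CPM, 1NMPP1 over vehicle (x axis), for each gene with at least 50 UMIs in each class with at least 100 cells per library (y axis), for the growth plate (left) and DRG (right). Points are genes coloured by group and black bars the median of all genes. Growth plate progenitor-like, monocyte-like and pro-B-like cells stay within 1.5-fold for all 36 genes, while in B cell-like cells S phase and mitosis genes part, with medians of -0.63 and 1.44.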

How the data were processed

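Unique molecular identifier counts per gene and cell, in filtered matrices, were deposited by the authors. Per the file headers they come from Cell Ranger 7.2.0, and per the submitters' processing notes the build is mm10. The sources used here give no annotation release. Cells under 200 genes or over 20% mitochondrial UMIs were dropped with Python 3.11.15 and scanpy 1.11.5, and the cells with the highest Scrublet scores were removed as doublets at 0.8% per 1000 barcodes, because Scrublet's own threshold marked 0 cells in the growth plate vehicle library. The libraries of a tissue were clustered together (2000 variable genes without cell cycle, histone and sex-linked genes, 30 principal components, 20 neighbours, Leiden resolution 1, with a split of clusters of at least 60 cells at 0.5). Clusters were named from 28 marker sets by a rule that was settled after the clusters were seen, and a few clusters still separated cycling cells. Total depth was 102692919, 139703885, 57303037 and 32790205 UMIs. 

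Cycling calls, phases and exact 95% intervals are described with the results. CPM is the summed UMIs of a class per 1000000. Log2 ratios used 0.5 UMI added to each sum, genes with at least 50 UMIs over both libraries, and 1.5-fold as a called difference, since no test is possible with 1 library per group. A zero count was given the limit of 3 counts. The named genes are all 36 members as their group needed them, the 3 highest and 3 lowest ratios and 3 highest CPM per class, and from other lists the 2 highest and lowest. The calls, thinning and ratios were tested on simulated data. The members and lists were chosen with earlier results of these data known. Alternatives changed the thinning, the UMI minimum, the filters, the doublet removal, the clustering genes and the sexes used. Sequences added to the reference and a few genes, the altered one among them, are not reported here.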

Additional observations from a re-analysis of the deposited data

Results flagged for a closer look

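The cycling share of all cells went opposite ways in the 2 tissues. The log2 ratio of the share with 1NMPP1 over vehicle was -0.11 in the growth plate and 0.12 in the DRG. With 1 library per group the difference between the tissues was not tested, and with the class shares of the vehicle library both ratios were negative, at -0.06 and -0.17.

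The median log2 ratio of the 36 genes in immature neutrophil-like cells was -0.048 in the growth plate and 0.081 in the DRG. This difference was not tested either. In the growth plate all 3 gene groups lay within 0.07 of 0, whereas in the DRG the S phase genes were at 0.56 and the mitosis genes at -0.27.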

How the results depend on the processing

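The cycling shares depended on depth and on the call. In the order of groups used above, they were 22.9%, 21.2%, 9.52% and 11.1% at 1000 UMIs, 39.7%, 38.2%, 17.8% and 23.6% at 4000 UMIs, and 42.1%, 45.0%, 39.0% and 33.1% without thinning. They were 34.5%, 33.6%, 16.9% and 18.4% with at least 2 UMIs and 25.0%, 23.0%, 10.0% and 11.4% with at least 5, and the growth plate shares were 30.7% and 28.6% with no doublets removed. The G2/M share was 56.0% (growth plate, 1NMPP1) and 51.8% (DRG, vehicle) at 1000 UMIs, 49.6% and 47.1% in the growth plate at 4000 UMIs, and 42.8%, 40.6%, 21.7% and 31.6% without thinning. It was 49.0%, 47.9%, 38.5% and 41.2% with at least 2 UMIs, 56.8%, 56.6% and 52.7% (DRG, vehicle) with at least 5, and 47.3%, 49.5%, 57.0% and 56.9% from scanpy's scores.

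Without thinning, the log2 ratio of the cycling share turned from -0.11 to 0.10 over all growth plate cells and from -0.22 to 0.032 in immature neutrophil-like cells, and over all DRG cells it was -0.24 in place of 0.12. The DRG ratio was 0.40 at 4000 UMIs and 0.48 in male-called cells. In growth plate B cell-like cells the ratio of 0.25 was -0.40 at 1000 UMIs and -1.27 in male-called cells. In mature neutrophil-like cells 0.39 became 1.10 at 4000 UMIs, -0.45 with at least 5 UMIs and -0.41 in female-called cells, and monocyte-like cells gave -0.37 in female-called cells.

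The median log2 ratio of the 36 genes in growth plate immature neutrophil-like cells turned from -0.05 to 0.0031 with no doublets removed and to 0.16 in female-called cells, and was -0.14 in male-called cells and -0.17 with each cell weighed alike. In male-called and female-called cells it was -1.25 and 1.39 in B cell-like, and 0.14 and -0.23 in monocyte-like cells. Erythroid-like cells gave 0.087 with a minimum of 500 genes, 0.32 in male-called cells and -0.31 with cells weighed alike. Female-called cells gave -0.11 in granulocyte progenitor-like and 0.036 in pro-B-like cells, cells weighed alike gave -0.041 in monocyte-like and 0.18 in pro-B-like cells, and mature neutrophil-like cells gave 0.060 with no doublets removed. In the DRG, erythroid-like cells gave 0.32 with a minimum of 500 genes and 0.38 in female-called cells, immature neutrophil-like cells -0.41 in male-called cells, satellite glia-like cells -1.36 and 0.69 in male-called and female-called cells, and sensory neuron-like cells -0.26 with cells weighed alike. Apart from these values and a few in cells of no named class, 14 of 36 alternative shares, 106 ratios of shares, 135 medians and 5 G2/M shares kept their value within the interval or limit used. The cause of the changes was not tested. No paired analysis was possible because each group holds 1 library.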
